A study of Mus musculus with 16 samples.

Results

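A set of 9 genes that type I interferon switches on (Ifit1, Ifit2, Ifit3, Isg15, Irf7, Oasl2, Usp18, Ifi44 and Rsad2) was followed in RNA from macrophages and microglia sorted from mouse brain. They were chosen by name, as widely used genes of the response, and 9 of 9 were found among the 18580 genes with reads in any library. The libraries cover 2 populations, both sexes, WT and CD163KO mice, which lack the scavenger receptor CD163, and 2 injections, α-syn monomers (MONO) or α-syn pre-formed fibrils (PFF), given into both striata at 12 weeks of age. All mice were injected, so no library comes from an untouched brain, and all brains were taken 2 months later. The macrophages were sorted as CD11b+ cells with high CD45, a gate that by the study's account also takes in neutrophils and NK cells beside border-associated macrophages and those that entered from blood, and the microglia as CD11b+ cells with low or intermediate CD45. The labels name no promoter or cell type that limits the knockout, and each of the 8 conditions (sex, genotype and injection) was sorted from 4 to 7 mice. One table per condition and population was analysed, 16 in all. Whether a table is 1 library or the sum of several is not stated, so every p-value below measures only the spread between these tables, which are called libraries.

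Type I interferons bind a receptor of IFNAR1 and IFNAR2 on the cell surface. The receptor's kinases JAK1 and TYK2 then phosphorylate STAT proteins, which join IRF9 to form the factor ISGF3. ISGF3 binds the interferon-stimulated response element (ISRE) in front of its target genes. Among the products are proteins that hold back viral RNA and translation, such as the IFIT family, and proteins that tune the response itself, such as IRF7, which drives further interferon production, and USP18, which damps the receptor. In brain, microglia and border macrophages both carry the receptor.

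The promoters of 4 of the 9 genes held the core of the ISRE, and they are printed here to show where it lies before the start of transcription. The core searched was GAAANNGAAA, on both strands (TTTCNNTTTC on the other), in the RefSeq promoter table for build GRCm38.p6, which gives 250 bases before and 50 after each start. It was found in 3.44% of all 32851 promoters in the table. Of the 9 genes, 8 matched an entry there. Usp18 has no entry. Capitals mark every match, each line is 180 bases long, ends at the base before the start and is written 5′ to 3′ on the strand of the gene.
Isg15: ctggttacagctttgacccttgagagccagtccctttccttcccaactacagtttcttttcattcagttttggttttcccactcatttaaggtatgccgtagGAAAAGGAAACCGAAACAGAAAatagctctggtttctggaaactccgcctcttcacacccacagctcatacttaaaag
Ifit1: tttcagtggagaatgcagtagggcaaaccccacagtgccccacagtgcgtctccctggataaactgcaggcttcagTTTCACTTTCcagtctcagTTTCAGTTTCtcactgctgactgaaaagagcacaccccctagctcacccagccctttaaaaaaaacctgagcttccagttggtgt
Ifit3: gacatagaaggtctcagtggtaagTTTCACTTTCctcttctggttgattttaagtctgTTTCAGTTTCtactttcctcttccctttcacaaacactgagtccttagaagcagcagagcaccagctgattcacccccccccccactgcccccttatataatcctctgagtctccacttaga
Rsad2: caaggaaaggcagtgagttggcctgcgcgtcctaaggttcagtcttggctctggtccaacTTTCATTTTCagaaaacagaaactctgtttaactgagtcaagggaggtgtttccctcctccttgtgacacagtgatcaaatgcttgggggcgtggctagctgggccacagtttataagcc
In Isg15 (chr4:156200819-156200998, minus strand) 3 overlapping matches lay between 78 and 57 bases before the start and read on the strand of the gene. In Ifit1 (chr19:34640709-34640888, plus strand) 2 matches began 104 and 85 bases before the start, on the other strand. In Ifit3 (chr19:34583349-34583528, plus strand) 2 matches began 156 and 122 bases before the start, with the same 10 letters as those of Ifit1. This window lies inside the interval of the gene (chr19:34583119-34588982), so the start used is not the first base of that interval. Rsad2 (chr12:26456453-26456632, minus strand) held 1 match, which began 120 bases before the start. The windows of Ifit2, Irf7, Oasl2 and Ifi44 held none, which says only that these letters are not in these windows. Of the 53 further interferon-stimulated genes listed for this work, 42 had a promoter in the table and 22 of them held the core.

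Depth was between 8648751 and 21433841 estimated counts per library. Levels are given as FPKM (fragments scaled to transcript length and to the reads of the library) divided by the TMM factor of the library, a factor that sets the bulk of the genes equal between libraries, and are called scaled FPKM. Beside FPKM as deposited this scaling raised macrophages relative to microglia in 6 of the 7 tested conditions and lowered them in male WT PFF. The libraries of the male WT PFF and the male CD163KO MONO conditions stood apart: their macrophage factors were 1.45 and 1.45, against 0.381 to 0.955 in the other 6, and their microglia factors 0.461 and 0.853, against 1.64 to 1.80. The study excluded the male CD163KO MONO condition. It was therefore left out of each test here, apart from alternative fits that add it back, and ranges and ranks are over the other 7 libraries of a population unless it is named. Cd163, the targeted gene, was at 20.8 to 45.1 scaled FPKM in the 4 WT macrophage libraries and had at most 1 count in the 4 CD163KO libraries. In microglia it was low in both genotypes, with no more than 101 counts. In male microglia it was in the reverse order of the labels, with 10 and 5 counts in the CD163KO libraries and 0 and 1 in the WT libraries. The microglia library labelled female CD163KO MONO held 799 counts of 4 Y-linked genes, at 8.37 scaled FPKM, whereas the other 3 female microglia libraries held at most 2.

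Macrophages held more RNA of these genes than microglia. Of the 9, 6 (Ifit2, Ifit3, Isg15, Irf7, Oasl2 and Usp18) were higher in macrophages, by 6.30-fold to 20.5-fold, and none was lower. Ifit1, Rsad2 and Ifi44 had estimates of the same sign but did not pass. The comparison took 7 conditions, each giving 1 library of macrophages and 1 of microglia, and fitted edgeR's quasi-likelihood test with condition as a block over 13704 genes, with Benjamini-Hochberg adjustment and a threshold of 0.05 on the adjusted p. Of all genes tested, 11.6% were called higher in macrophages and 6.64% lower, and the median log2 fold change was -0.37, against 3.37 for the 9 genes. In bulk RNA of sorted cells, a change in RNA per cell and a change in the mix of cells cannot be told apart.

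**Figure D1:**
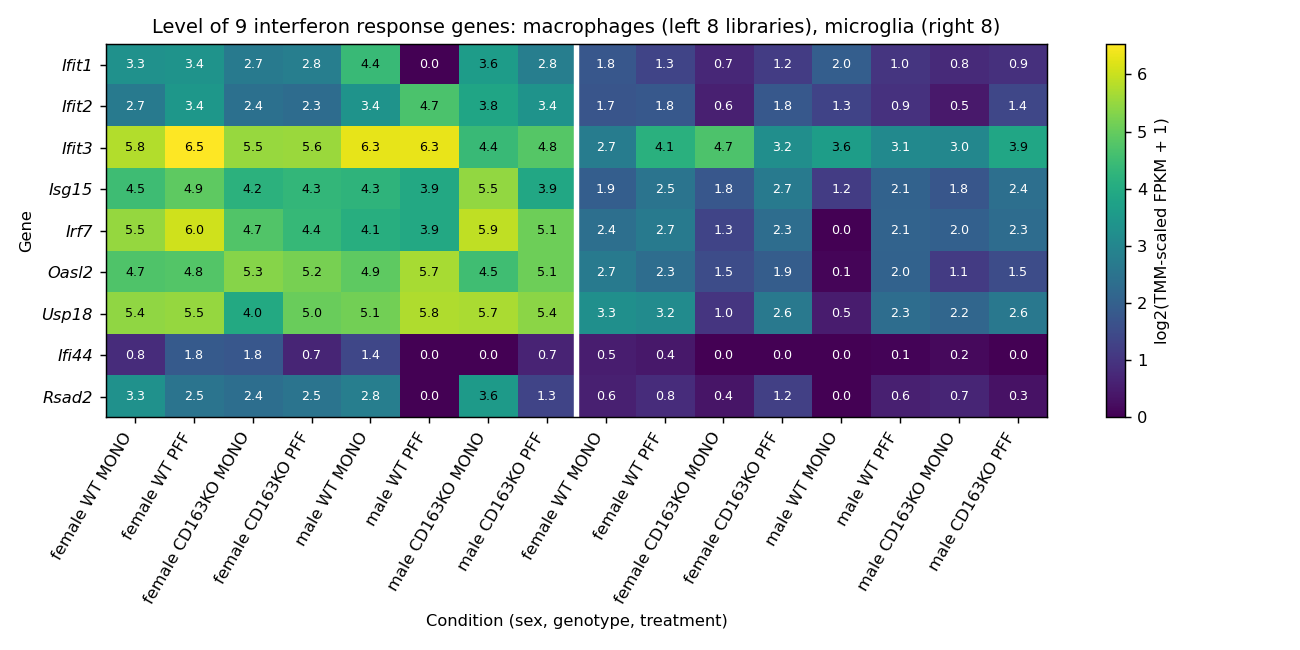
Level of each of the 9 genes, as log2(TMM-scaled FPKM + 1), in the 8 macrophage and 8 microglia libraries, 1 column per library; darker cells are lower. Ifit3 and Usp18 are high in every macrophage library and Ifi44 is low in all 16, while the male WT PFF macrophages are at 0 for Ifit1, Rsad2 and Ifi44.

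Irf7 (chr7:141263183-141266499), the transcription factor that amplifies interferon production, lay between 14.3 and 65.2 scaled FPKM in macrophages, with a median of 25.9 over 7 libraries. In microglia it lay between 0 and 5.52, with a median of 3.95. The 2 ranges did not overlap, with the highest macrophage library being female WT PFF and the lowest male WT PFF. The log2 fold change was 3.90 (SE 0.73, edgeR adjusted p = 0.00294), and macrophages were higher in 7 of 7 conditions, also in FPKM as deposited. Reads were divided over 3 transcripts of Irf7, whose sum is used.

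Isg15 (chr4:156199424-156200818) encodes the ubiquitin-like protein that is attached to other proteins in interferon-treated cells. It lay between 14.02 and 29.3 scaled FPKM in macrophages (median 18.1) and between 1.22 and 5.41 in microglia (median 3.14), again with no overlap. Its log2 fold change was 2.90 (SE 0.62, edgeR adjusted p = 0.00665). Usp18 (chr6:121245906-121270917), which removes ISG15 from proteins and restrains the receptor, was higher still in macrophages, at 14.7 to 53.1 scaled FPKM with a median of 40.8. In microglia it lay between 0.418 and 8.57, with a median of 5.16. The change was 3.70 (SE 0.48, edgeR adjusted p = 2.6e-04), and the ranges did not overlap on this scale but did in FPKM as deposited.

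The 3 IFIT genes, whose proteins bind foreign or unmodified RNA and curb its translation, lie together on chromosome 19 (Ifit2 at chr19:34550550-34576534, Ifit3 at chr19:34583119-34588982, Ifit1 at chr19:34640889-34650009). Ifit3 had the highest median of the 9 in both populations, 54.3 scaled FPKM in macrophages (26.8 to 91.6) and 11.5 in microglia (5.70 to 25.1). Its change was 2.66 (SE 0.35, edgeR adjusted p = 2.7e-04). Its counts were not whole numbers in 16 of 16 libraries, so the reads were divided with another transcript, and its level is uncertain in relation to the near-identical Ifit3b. Ifit2 was lower, at 3.94 to 24.6 scaled FPKM in macrophages (median 9.24) and 0.490 to 2.51 in microglia (median 1.64), with a change of 2.74 (SE 0.51, edgeR adjusted p = 0.00277). The highest of the 7 macrophage libraries for Ifit2 was male WT PFF, and the next was female WT PFF at 9.89. Ifit1 had a median of 6.00 in macrophages and of 1.25 in microglia. In the male WT PFF macrophages it had 0 counts, where 3 counts would have been 0.0429 scaled FPKM, while the same library held 2470 counts of Ifit2 and 4135 of Ifit3. Its relative Ifit1bl1 had 1130 counts there, at 18.8 scaled FPKM against 1.23 to 4.94 in the other 6 macrophage libraries, and Ifit3b was at 0.214 there. This library had counts for 8378 genes, and the other 6 for 11272 to 12992; the part of read assignment or of gene detection in the 0 was not tested. The other 6 macrophage libraries lay between 5.31 and 20.6, above each of the 7 microglia libraries (0.659 to 2.88).

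Oasl2 (chr5:114896926-114912245), of the oligoadenylate synthase-like family of antiviral proteins, showed the largest change of the genes that passed, 4.36 (SE 0.62, edgeR adjusted p = 4.8e-04). It lay between 25.6 and 50.4 scaled FPKM in macrophages (median 32.8) and between 0.0678 and 5.34 in microglia (median 2.80). Along with Irf7 it was the gene whose 2 ranges stayed apart in FPKM as deposited too. Rsad2 (chr12:26442743-26456452), which encodes viperin, an enzyme that makes a chain-terminating nucleotide against viruses, lay at a median of 4.70 scaled FPKM in macrophages (0 to 8.83) and 0.494 in microglia (0 to 1.36). Ifi44 (chr3:151730922-151749910) was the lowest of the 9, at a median of 0.771 in macrophages and 0.0122 in microglia, where 5 of 7 libraries had no more than 3 counts. The estimates for these last genes were 3.37 for Rsad2 (SE 1.46, edgeR adjusted p = 0.142) and 4.97 for Ifi44 (SE 2.22, edgeR adjusted p = 0.150), beside 2.46 for Ifit1 (SE 1.05, edgeR adjusted p = 0.136).

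**Figure D2:**
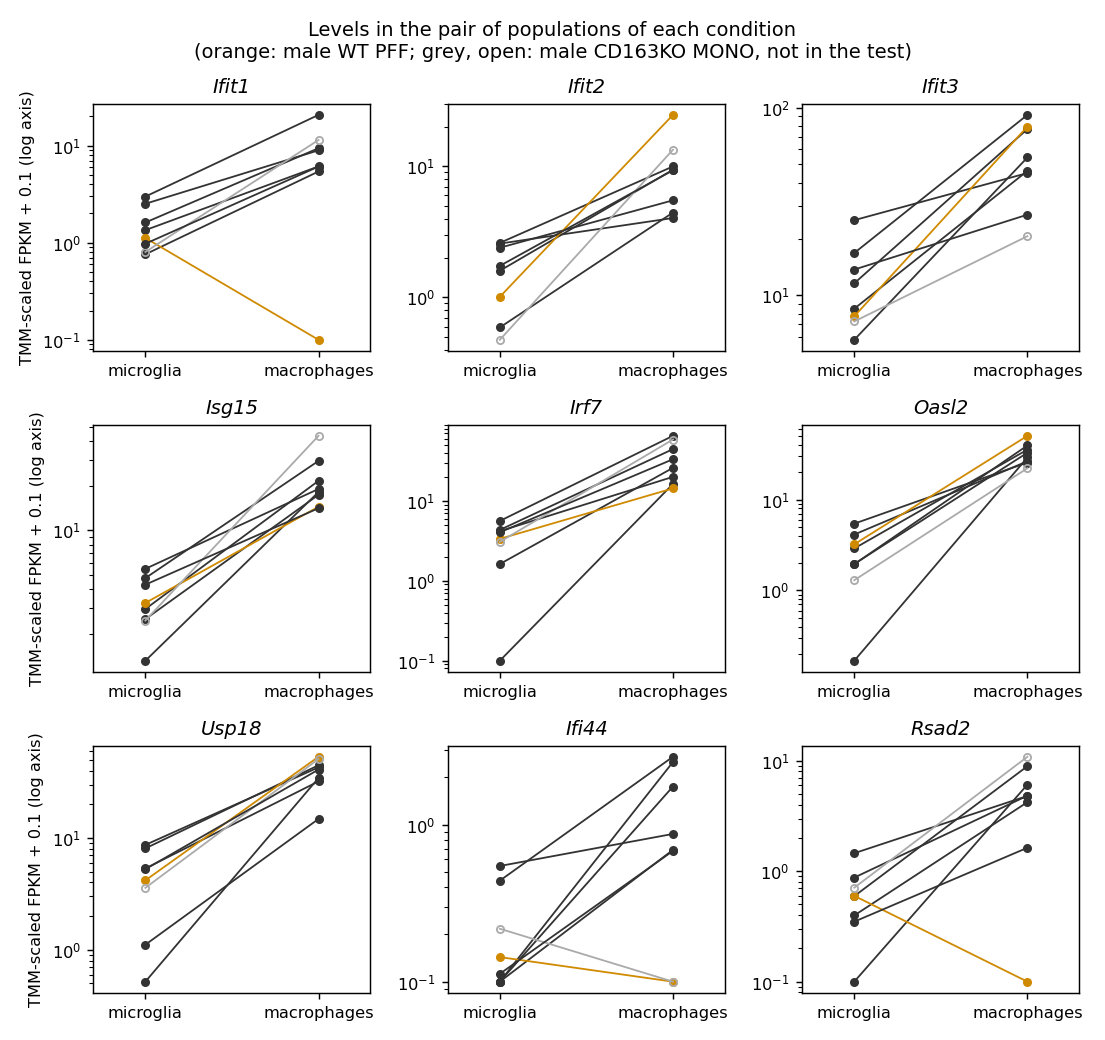
Scaled FPKM + 0.1 on a log axis in the microglia and the macrophages of each condition, with a line for each condition. Lines rise from microglia to macrophages in 60 of 63 pairs of the 7 tested conditions, and the 3 that fall belong to male WT PFF (orange).

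Over the 9 genes and 7 conditions, macrophages were above microglia in 60 of 63 pairs, and in 54 of 63 in FPKM as deposited. Neither the pairs nor the overlap of ranges was counted over all genes, so these counts do not set the 9 apart from other genes. The 3 exceptions on the scaled values were Ifit1, Rsad2 and Ifi44 in male WT PFF, where the macrophages had 0 counts of each. Without the male WT PFF condition, 9 of 9 genes passed, with 19.2% of all genes called higher, and the changes of Ifit1, Rsad2 and Ifi44 were 2.95, 3.94 and 5.77 (edgeR adjusted p = 1.6e-05, 0.00132 and 0.0156). DESeq2, run on the same 14 libraries, called 9 of 9 higher, where it called 16.3% of all genes higher. Without TMM scaling, on library totals alone, Irf7, Oasl2 and Usp18 were called and the other 6 were not, where 4.37% of all genes were called higher. The median of all genes then moved to -1.96, and 599 genes were called higher and 5709 lower in place of 1589 and 910. The distance of the 9 genes from that median stayed between 2.55 and 5.20, beside 2.83 to 5.34 with TMM scaling.

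**Figure D3:**
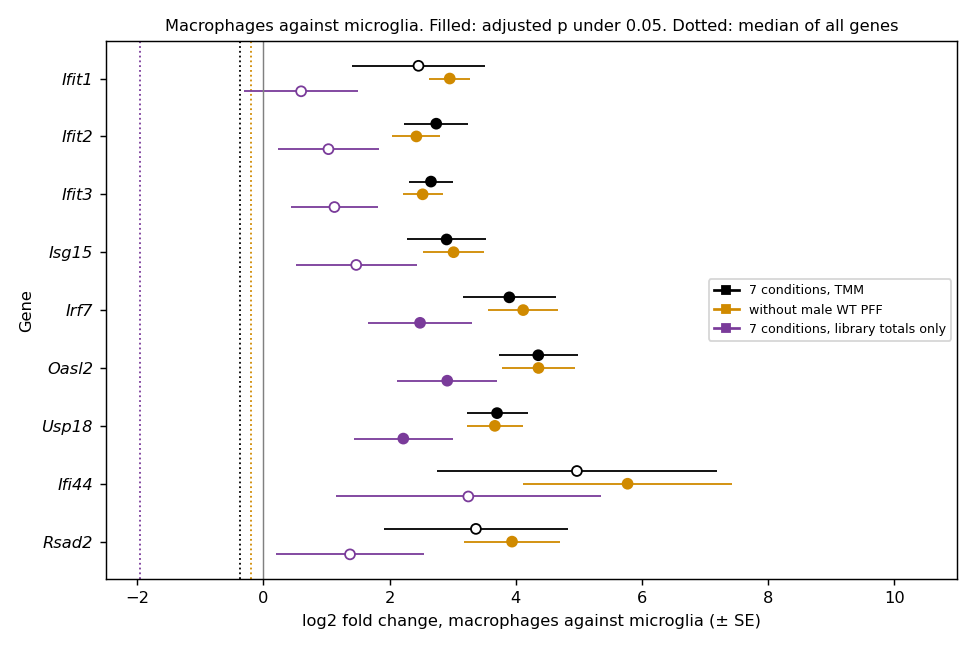
log2 fold change of macrophages against microglia with its SE for each gene, in the fit over 7 conditions (black), without male WT PFF (orange) and with library totals only (purple); filled points passed an adjusted p of 0.05 and dotted lines are the medians of all genes tested. All 9 estimates are above 0 in the 3 fits, while the number that passed is 6, 9 and 3.

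Other cell types moved with this comparison. A list of 12 neutrophil genes summed to between 48509 and 278534 scaled FPKM in macrophages and between 714 and 3184 in microglia, with all 12 above 3 counts in every macrophage library and 10 to 12 in microglia. Sums of 8 monocyte genes were 878 to 2556 against 16.4 to 49.5, of 10 border-associated macrophage genes 3115 to 7408 against 55.9 to 95.8, and of 11 NK and T cell genes 112 to 207 against 0.146 to 3.14. A list of 10 microglia genes summed to 1185 to 2743 in macrophages. In microglia it summed to 9239 to 12105 in 6 libraries and to 92608 in male WT PFF. The 6 genes listed for plasmacytoid dendritic cells, a cell type known for making interferon, were at 18.4 to 96.7 in macrophages and 5.03 to 22.2 in microglia. Of these 6, 1 to 3 had more than 3 counts per library in each population. Choroid plexus genes (6) summed to 213 to 16214 in macrophages, with a median of 2950, and to 296 to 1426 in microglia, with a median of 570. Endothelial genes (6) summed to 17.2 to 373 against 11.4 to 29.8. Sall1, a microglial transcription factor, was at most 0.887 in macrophages and at least 56.0 in microglia. Csf3r, a receptor gene of the neutrophil list, went the other way from the sum of that list, with a median of 39.7 in macrophages and 131 in microglia. Of the genes for the sort, Itgam (CD11b) was at a median of 21.5 in macrophages and 101 in microglia, and Ptprc (CD45) at 59.97 and 39.8, with ranges that overlapped for Ptprc (40.7 to 208 and 36.1 to 60.4). The part of these cell types in the difference of the interferon genes was not tested.

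The rest of the pathway gave a mixed picture by role. Of 7 genes for ligands, 4 had reads and none more than 16 counts; Ifnb1, interferon beta, exceeded 3 counts in 1 macrophage library and had none in microglia. None of the ligands passed the filter on counts. Of 6 genes of the receptor, its kinases and ISGF3 described here, edgeR called none, with 1 at an unadjusted p under 0.05, and DESeq2 called none. Over all genes edgeR called 11.6% higher and 6.64% lower, and DESeq2 16.3% and 18.2%, so 6 genes are too few to set this list apart. Without male WT PFF, 1 of the 6 was called higher, where 19.2% of all genes were. With library totals only 3 of the 6 were called lower, where 41.7% of all genes were. Ifnar1 and Ifnar2, the chains of the receptor, had estimates of 0.45 (SE 0.30) and 0.12 (SE 0.27), and Stat2 and Irf9 of 0.31 (SE 0.34) and 0.59 (SE 0.25). None of these 4 passed, at adjusted p of 0.330, 0.799, 0.565 and 0.133 in edgeR. With library totals only all 4 estimates were below 0, at -0.97, -1.30, -1.26 and -0.98, where the median of all genes was -1.96.

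Sensors of nucleic acid and their adaptors were split, with 4 of 19 higher and 4 lower, where 11.6% of all genes were higher and 6.64% lower. Higher were Zbp1, a sensor of Z-form nucleic acid, by 5.31 (SE 0.73), Samhd1, which breaks down nucleotides, by 2.86 (SE 0.22), Trex1, a DNA exonuclease, by 1.64 (SE 0.25), and Dhx58, an RNA helicase of the RIG-I family, by 1.27 (SE 0.33). With library totals only, Dhx58 had an estimate of -0.18. Its call was lost in 5 of 7 fits that left out 1 condition (adjusted p 0.0511 to 0.0770), with the male CD163KO MONO condition added (0.0604) and with no filter on low counts (0.115), all in edgeR. Lower in macrophages were Tlr3, the receptor for double-stranded RNA, with a change of -4.22 (SE 0.96), Tlr7, for single-stranded RNA, with -1.40 (SE 0.31), Sting1, the adaptor downstream of cytosolic DNA, with -1.36 (SE 0.25), and Irf5, a transcription factor, with -0.84 (SE 0.23). The call of Irf5 was lost in 4 of the 7 fits that left out 1 condition. Tlr3 was at 0.848 scaled FPKM at the median in macrophages and 8.96 in microglia, and Sting1 at 58.4 and 188. Adjusted p of these 8 ranged from 7.1e-06 (Samhd1) to 0.0238 (Irf5) in edgeR.

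Of 53 other interferon-stimulated genes, 49 were tested. Over all genes 11.6% were called higher in macrophages and 6.64% lower. Of the 49, 29 were called higher and none lower, with a median change of 2.20. The 4 with the largest change were Ifitm1 (11.09, SE 1.08), of the membrane proteins that block viral entry, Ifi203 (8.42, SE 0.88) and Ifi211 (7.89, SE 1.24) of the AIM2-like family, and Ifit1bl1 (8.13, SE 1.11), a relative of Ifit1. Each was at a median of no more than 0.289 scaled FPKM in microglia, so the sizes of these fitted changes depend on the prior count. Ifitm1 was at 66.0 to 335 scaled FPKM in macrophages, where neutrophil genes were also high. Of the ISG15 conjugation genes, Ube2l6, the conjugating enzyme, was higher, by 1.95 (SE 0.32), and 2 did not pass. Of 5 inhibitors, Socs3, a feedback inhibitor of cytokine receptors, was lower, with -1.16 (SE 0.26), and 4 did not pass. Without the female WT PFF condition, Socs3 did not pass (edgeR adjusted p = 0.0537). Of the 82 pathway genes tested and reported here, apart from the 9, 34 were called higher and 5 lower. Over all genes the shares were 11.6% higher and 6.64% lower, and 4.37% and 41.7% with library totals only.

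**Figure D4:**
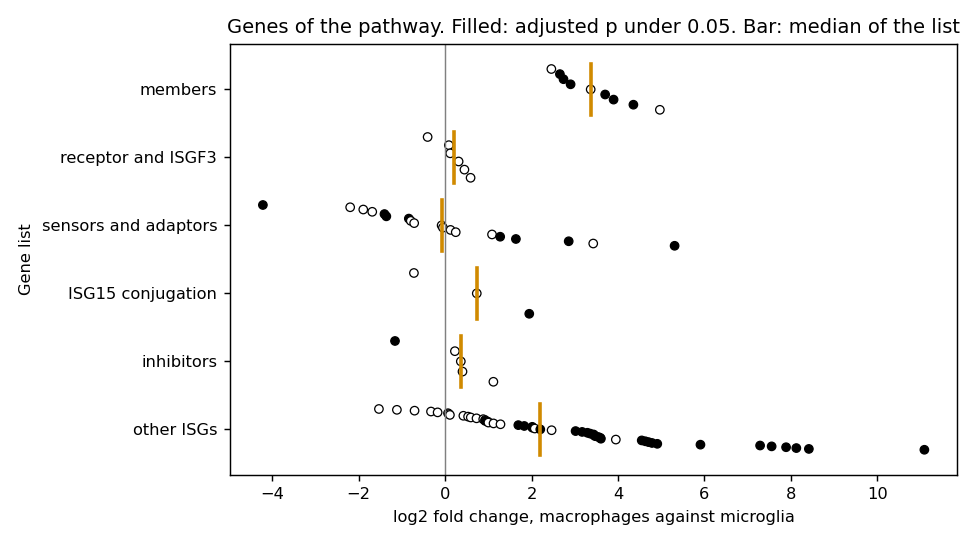
log2 fold change of macrophages against microglia for each gene of 6 lists of the pathway, 1 point per gene; filled points passed an adjusted p of 0.05 and the bar is the median of the list. The 9 genes and the other interferon-stimulated genes lie mostly to the right, the sensors on both sides, and the receptor list close to 0.

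Within a population no difference of the 9 genes between PFF and MONO passed. The fits took 7 libraries with sex, genotype and treatment as terms, in edgeR. In macrophages 0% of 11988 genes were called, and none of the 9 had an unadjusted p under 0.05 by edgeR or DESeq2. Their median change was 0.16, with Usp18 at 0.70 (SE 0.43) and Ifit2 at 0.72 (SE 0.55). Leaving out 1 library at a time put the median between -0.14 (without female WT PFF) and 0.33 (without male WT MONO, and likewise without female CD163KO MONO), so its sign rested on 1 library. In pairs of libraries that differ only in the injection, which have no replicate check, Usp18 was higher after PFF in 3 of 3 pairs, by 0.06 to 1.07 on the log2(scaled FPKM + 1) scale. Ifit3 was also higher in 3 of 3, by 0.04 to 0.74, and the highest female value was in WT PFF, 91.6 against 54.3 after MONO. How many of all genes went one way in 3 of 3 such pairs was not counted, here or in the contrasts below. Neutrophil genes summed to less after PFF in 3 of 3 pairs of macrophages (58218 against 155694, 48509 against 186532 and 49504 against 123811 in female WT, female CD163KO and male WT), as did monocyte genes (956 against 1985, 878 against 1486 and 1230 against 1939) and the NK and T cell list. Genes of plasmacytoid dendritic cells were lower in the same pairs (22.2 against 23.7, 21.6 against 43.9 and 18.4 against 96.7), and so were those of B cells. The microglia list summed to more in 3 of 3, and the other 6 of 12 cell type lists did not go one way. Their part was not tested.

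In microglia 0% of 12725 genes were called for PFF against MONO, and the 9 genes had a median change of 1.20, beside 0.13 for all genes. Of the 9, 7 were above 0, among them Rsad2 at 2.72 (SE 1.96), Irf7 at 2.17 (SE 1.45) and Usp18 at 1.82 (SE 1.03). The edgeR unadjusted p was above 0.05 for each of the 9, and the lowest adjusted p was 0.780, for Usp18. DESeq2 gave 2 of 9 an unadjusted p under 0.05 and called none. The male WT MONO microglia were low in several of these genes: Irf7, Rsad2 and Ifi44 had 0 counts, Oasl2 had 3 and Usp18 had 11, while Ifit1 had 114 and Ifit3 had 341. Without that library the median of the 9 was 0.81 and the changes were 1.51 (SE 1.57) for Rsad2, 0.81 (SE 0.74) for Irf7, 0.84 (SE 0.79) for Usp18 and 0.07 (SE 0.59) for Oasl2, down from 1.39 (SE 1.15). The median rose to 2.16 without female WT PFF, to 2.04 without female CD163KO PFF and to 1.88 without female WT MONO. Without the female CD163KO MONO microglia, the library with Y-linked RNA, Usp18 was at 1.16 (SE 1.08), Ifit2 turned from 0.74 (SE 0.82) to -0.09 (SE 0.84) and Ifit3 from -0.16 (SE 0.48) to 0.72 (SE 0.54). In pairs of libraries, Irf7, Isg15 and Rsad2 were higher after PFF in 3 of 3 pairs. Isg15 differed by 0.56, 0.91 and 0.90 in female WT, female CD163KO and male WT. Monocyte genes summed to less after PFF in the same 3 pairs (18.4 against 33.7, 16.4 against 29.5 and 17.0 against 49.5 scaled FPKM). Astrocyte genes summed to more (72.3 against 51.2, 77.8 against 50.3 and 72.8 against 66.5), as did pituitary genes (62.1 against 0.772, 1.301 against 1.27 and 1.37 against 0.0791). The part of these lists was not tested.

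CD163KO against WT gave no call among the 9 genes in either population. In macrophages 0.00834% of 11988 genes were called, which is 1 gene, Cd163 itself (log2 change -11.35, edgeR adjusted p = 0.0102). Ifit3 had the lowest unadjusted p of the 9 in macrophages, 0.030 in edgeR, with a change of -1.01 (SE 0.38, adjusted p = 1), and was the only one of the 9 under 0.05; DESeq2 also gave 1 of 9 under 0.05 and called none. Ifit2, Ifit3, Isg15 and Usp18 were lower in CD163KO than in WT macrophages in 3 of 3 pairs, Ifit3 by 0.27, 0.98 and 1.53 on the log2(scaled FPKM + 1) scale in female MONO, female PFF and male PFF. Ifit3 was at 54.3, 91.6 and 79.4 scaled FPKM in the WT libraries of these pairs and at 44.8, 46.0 and 26.8 in the CD163KO libraries. Its near-identical relative Ifit3b was at 17.2, 11.3 and 0.214 in the WT libraries and at 18.7, 9.91 and 9.64 in the CD163KO libraries. The part of the division of reads between them was not tested. Border-associated macrophage genes summed to more in the CD163KO library of each pair (6693 against 4045, 7408 against 5106 and 4315 against 3115), NK and T cell genes to less in 3 of 3, and neutrophil genes to more in 2 of 3. Endothelial genes summed to less in 3 of 3 (17.2 against 76.5, 44.2 against 373 and 25.6 against 28.2). Their part was not tested. The median change of the 9 was -0.30 and turned to 0.11 without female WT PFF, and was -0.71 and -0.70 without male CD163KO PFF and without male WT PFF. The unadjusted p of Ifit3 was under 0.05 in 3 of 7 fits that left out 1 library, and ranged from 0.0226 to 0.167. Without the male WT PFF macrophages the change of Ifit3 was -0.97 (SE 0.37, edgeR unadjusted p = 0.0239, adjusted p = 1). In microglia 0% of 12725 genes were called, and none of the 9 had an unadjusted p under 0.05 by edgeR or DESeq2. The median change was -0.65. It was 0.03 without the male WT PFF microglia, 0.16 without female WT MONO and -0.97 without female WT PFF. Without the female CD163KO MONO microglia, the library with Y-linked RNA, it was -0.37, and Ifit3 turned from 0.47 (SE 0.48) to -0.37 (SE 0.53). Ifit1, Oasl2 and Ifi44 were lower in CD163KO microglia in 3 of 3 pairs, Ifi44 with no more than 26 counts in any library. Border-associated macrophage genes were lower there too in 3 of 3 (55.9 against 87.0, 57.2 against 78.6 and 61.9 against 63.2 scaled FPKM in female MONO, female PFF and male PFF), and their part was not tested.

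**Figure D5:**
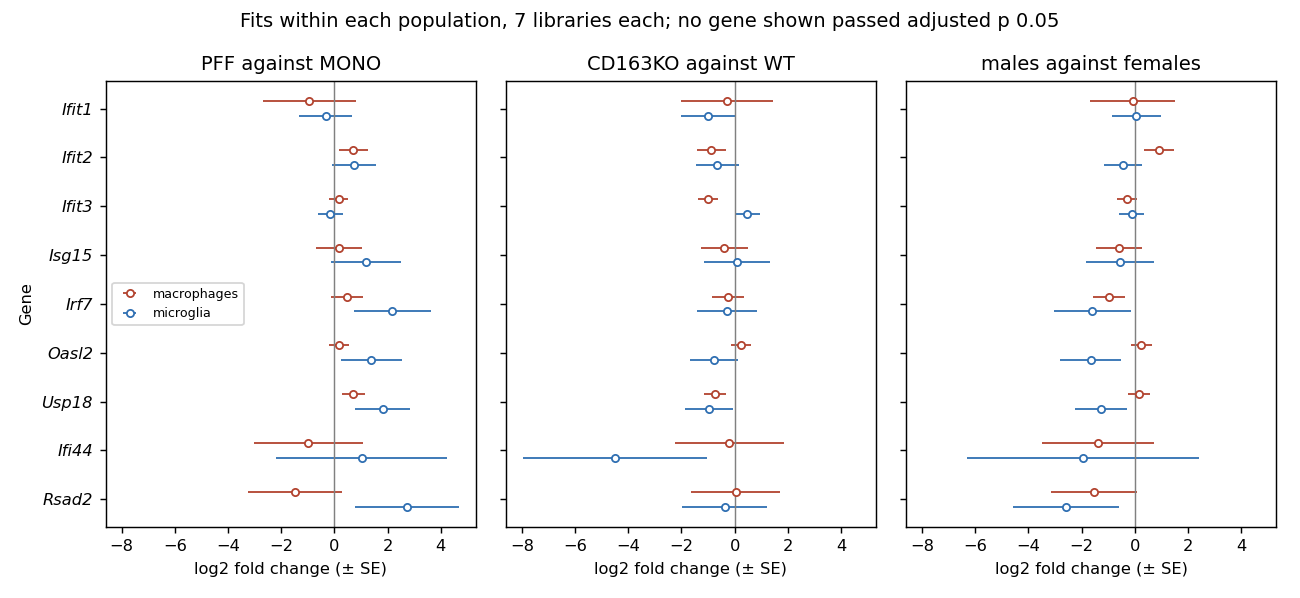
log2 fold change with its SE for each gene in macrophages (red) and microglia (blue) for PFF against MONO, CD163KO against WT and males against females, 7 libraries per fit. No gene passed an adjusted p of 0.05, and the SE is wider for Ifit1 in macrophages and for Ifi44 and Rsad2 in both.

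Males against females gave no call among the 9 either, with 0% of 11988 genes called in macrophages and 0% of 12725 in microglia. The 4 Y-linked genes were not called either. In macrophages they summed to 350 to 6545 counts in males and to at most 2 in females. The absence of a call is therefore no evidence that the 9 do not differ. By edgeR none of the 9 had an unadjusted p under 0.05 in either population, and DESeq2 gave 1 in microglia and none in macrophages. In microglia the median was -1.27, with Oasl2 at -1.66 (SE 1.14) and Irf7 at -1.60 (SE 1.45). Leaving out 1 library at a time put it between -2.10 (without male CD163KO PFF) and -0.25. The latter came without the male WT MONO microglia, which had next to no reads of Oasl2 and Irf7, where Oasl2 was at -0.31 (SE 0.59) and Irf7 at -0.16 (SE 0.73). Of the 9, 6 (Ifit2, Isg15, Irf7, Oasl2, Usp18 and Rsad2) were lower in male microglia in 3 of 3 pairs, Usp18 by 2.75 in WT MONO and by 0.02 in CD163KO PFF. The share of all genes lower in 3 of 3 was not counted. The median of the 9 was -0.58, -0.45 and -0.26 in the pairs WT MONO, WT PFF and CD163KO PFF of microglia, and that of all genes with a scaled FPKM of at least 1 in either library was -0.03, -0.38 and 0.0037. Neutrophil genes summed to more in the male microglia of these pairs (1626 against 736, 3184 against 714 and 1660 against 880 scaled FPKM), as did the microglia list (10054 against 9239, 92608 against 10262 and 10718 against 10551). Oligodendrocyte genes summed to less (59.6 against 74.2, 42.1 against 114 and 73.9 against 79.5). The part of these lists was not tested. In macrophages Ifit2 was higher in males in 3 of 3 pairs, by 0.69, 1.23 and 1.05 in WT MONO, WT PFF and CD163KO PFF. Isg15 and Rsad2 were lower in 3 of 3. NK and T cell genes summed to more in male macrophages in 3 of 3 (207 against 170, 146 against 119 and 119 against 112 scaled FPKM). Choroid plexus genes summed to less (2950 against 16214, 497 against 5726 and 213 against 6446), as did oligodendrocyte genes (68.1 against 221, 19.7 against 275 and 56.4 against 82.8) and astrocyte genes (46.8 against 91.0, 27.7 against 114 and 45.7 against 63.6). Their part was not tested. The median of the 9 in macrophages was -0.29, and with 1 library left out it lay between -0.73 (without male CD163KO PFF) and 0.04 (without female WT PFF). The same 7 libraries serve all 3 contrasts, so their values are not separate evidence.

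Whether a change differed between the populations was fitted as an interaction over 14 libraries. For PFF against MONO, CD163KO against WT and males against females, 0% of 13704 genes were called in each, none of the 9 among them. Ifit3 was the only one of the 9 with an unadjusted p under 0.05, and only for the genotype (difference -1.52, SE 0.61, edgeR unadjusted p = 0.038, adjusted p = 1). This p was above 0.05 in 4 of 7 fits that left out 1 condition (female CD163KO MONO, female WT MONO, male CD163KO PFF or male WT MONO). Without female CD163KO MONO, whose microglia hold Y-linked RNA, the difference was -1.03 (SE 0.83, edgeR unadjusted p = 0.249, adjusted p = 1). How far the division of reads between Ifit3 and Ifit3b entered this difference was not tested. DESeq2 gave 1, 2 and 1 of the 9 under 0.05 and called none. Each condition has 1 library per population, and the study's 2 batches of mice are not given per library in the labels, so a batch could not be told apart here.

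The 9 genes did not move as a block between libraries. After each gene's deviation from the mean of its population was taken over 14 libraries, Pearson's r with the mean of the other 8 was 0.85 for Irf7, 0.84 for Isg15, 0.69 for Usp18, 0.65 for Rsad2, 0.63 for Oasl2 and 0.53 for Ifi44. It was 0.13 for Ifit1, -0.06 for Ifit2 and -0.23 for Ifit3. These are descriptions over 14 libraries that differ in depth and in the number of genes seen, and the male WT PFF macrophages, with 0 counts of 3 of the genes, are among them. Of 7443 genes with at least 5 CPM in both populations, those most like the mean of the 9 were Plekho2 (r = 0.94), Khk (0.91), Opa3 (0.90), Lypla2 (0.89) and Agtrap (0.88).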

How the data were processed

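RNA of sorted brain macrophages and microglia was sequenced by SMART-seq2. The submitters' processing notes name Bowtie2, RSEM and DESeq2 and the build mm10; versions are not given in the sources used here. The authors deposited, per the file headers, an RSEM estimated count and an FPKM for each RefSeq transcript with reads. The deposited estimated counts are not normalized, and the deposited FPKM were scaled by the authors to transcript length and reads. The study also describes triplicates, batch correction and 3 removed outliers, steps not repeated here.

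Of 27787 transcripts, 99.44% were matched to symbols and summed per gene, with unlisted genes at 0. Estimated counts were rounded and tested with edgeR 4.0.16 (quasi-likelihood, TMM, filterByExpr, Benjamini-Hochberg) in R 4.3.3. Levels were FPKM divided by TMM factors over 16 libraries, and differences between single libraries used log2(scaled FPKM + 1). At a depth of 8648751 to 21433841 counts, 3 counts was taken as the floor, which covers counting error only. Alternatives were DESeq2 1.42.0, limma 3.58.1 on log2 FPKM, other scalings, no filter, no block and leaving out libraries. The procedure was tested on simulated data.

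The genes, lists and tests were chosen with earlier results of these data known. Genes named were the 9, Ifnar1, Ifnar2, Stat2 and Irf9, the 4 called genes with the largest change per pathway list and direction, the 5 most alike and Cd163, with marker and Y-linked lists by their sums. A gene that meets this rule is not reported here and is left out of the pathway counts. Sequences are from RefSeq, build GRCm38.p6.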

Additional observations from a re-analysis of the deposited data

Results flagged for a closer look

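The value of each gene was compared with the others of its population over 7 libraries, 18 sets in all, in which chance flags about 1 in 20. In male WT PFF macrophages Ifit1 stood apart at 0 scaled FPKM, the lowest of 7. In female CD163KO MONO macrophages Usp18 stood apart at 14.7 scaled FPKM, the lowest of 7.

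In the condition that entered only alternative fits, male CD163KO MONO, the libraries held several of the genes above both WT MONO libraries of their population. In macrophages these were Ifit2 at 13.3, Isg15 at 43.4, Irf7 at 58.6, Usp18 at 50.7 and Rsad2 at 10.8 scaled FPKM, and in microglia Rsad2 at 0.609. Below both WT MONO libraries were Ifit3 at 20.6 (54.3 and 77.0 in female and male WT MONO) and Oasl2 at 22.1 (25.6 and 29.1) in macrophages, and Ifit1 at 0.703 (2.42 and 2.88) and Ifit2 at 0.375 (2.29 and 1.498) in microglia. The macrophage library also had 0 counts of Ifi44 (24 and 87), 9775 genes had counts and the TMM factor was 1.45.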

How the results depend on the processing

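The call of 6 higher genes in macrophages depended on the scaling and on 1 condition. With library totals only, 3 of the 9 were called, where 4.37% of all genes were called higher. Limma on FPKM as deposited called Isg15, Irf7, Oasl2 and Usp18, where 4.96% were. Leaving out 1 condition at a time gave between 6 and 9, with 9 only without male WT PFF. In those fits 8.94% to 19.2% of all genes were called higher. The fit with no replicate block, with condition dropped, gave 8, where 17.9% were. Over all genes, 2499 were called, beside 4869 without male WT PFF, 4717 with DESeq2, 4179 and 6232 with limma on scaled FPKM and on FPKM as deposited, and 6308 with library totals only. Calls higher in macrophages were 63.6% of all calls, and 47.2% with DESeq2, 50.4% and 10.9% with the 2 limma fits, 46.5% with no filter and 9.496% with library totals only. The 9 genes were above 0 in every one of these fits. Of 18 pathway genes named, Dhx58, Ifnar1, Ifnar2, Irf9 and Stat2 changed sign both with library totals only, where Dhx58 was at -0.18 and Ifnar2 at -1.30, and in limma on FPKM as deposited, where Dhx58 was at -0.10, fits in which the median of all genes was -1.96 and -0.85.

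For treatment, genotype and sex, and for the differences between populations, none of the 9 was called under any of the alternatives, and 1099 of 1260 estimates kept their sign. Of 648 differences within pairs of libraries recomputed with FPKM as deposited, other pseudocounts or CPM, 76 moved by 1 or more on the log2 scale. The 9 genes were limited by depth where 3 counts or fewer were seen, as for Ifi44 in 5 of 7 microglia libraries.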
